A study of Mus musculus with 12 samples.

Results

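The lysosomal proton pump and cathepsin genes were described in mouse neutrophils and macrophages exposed to calcitonin gene-related peptide (CGRP), a neuropeptide released by pain-sensing neurons. The members were taken by name from the 52636 genes of the count tables. They were all genes of the V0 and V1 sectors of the vacuolar-type proton pump whose symbols start with Atp6v0 or Atp6v1, every cathepsin with a single-letter symbol apart from *Ctsg*, the membrane proteins *Lamp1* and *Lamp2*, and the transcription factors *Tfeb*, *Tfe3* and *Mitf*. Pseudogenes were left out. This gave 44 genes, of which 9 encode V0 subunits, 13 V1 subunits, 17 cathepsins, 2 LAMP proteins and 3 factors of the MiT/TFE family. The naming rule itself used no expression value.

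The study sequenced RNA from bone marrow cells of C57BL/6J mice aged 8 to 12 weeks. Neutrophils were taken fresh into RPMI medium, and monocytes were first kept for 3 days in DMEM/F12 medium with 10 ng/ml M-CSF, under which monocytes become macrophages (the labels call these cells monocyte/macrophage, and they are called macrophages here). Each cell type then received 1 nM CGRP or saline (PBS) for 4 h, which gave 4 groups of 3 libraries: saline neutrophils, CGRP-treated neutrophils, saline macrophages and CGRP-treated macrophages. The sources do not say whether the 3 libraries of a group came from separate mice or cultures, so p-values measure only the spread between these libraries, which may be technical.

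Library totals ran from 2719556 to 3631989 counts in saline neutrophils and from 2196558 to 3270388 in CGRP-treated neutrophils. They ran from 2536415 to 3477069 in saline macrophages and from 2002559 to 3259073 in CGRP-treated macrophages. Replicate 3 was the smallest library in every group. Reads were counted by unique molecular identifier near the 3′ end of each transcript. Levels are given as CPM, counts brought to a common library total with TMM factors over the 12 libraries. A count of 3, taken as the floor, was worth between 0.858 and 1.5 CPM, and this covers counting error only.

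The labels were checked against markers. The 13 neutrophil markers summed to between 158274 and 236932 CPM in the 6 neutrophil libraries, led by *S100a8*, and to between 303 and 444 CPM in the 6 macrophage libraries. The 10 macrophage markers summed to between 12722 and 13988 CPM in macrophage libraries and to between 635 and 766 CPM in neutrophil libraries, where *Cd68* was the most abundant and the efferocytosis receptor *Mertk* averaged 0.868 CPM with saline. Neutrophil libraries also held erythroid markers at 5714 to 7334 CPM in sum, led by the globin gene *Hbb-bs*, and the granulocyte precursor genes *Mpo* and *Elane* at 1304 ± 62.4 and 1575 ± 138 CPM with saline (SD, n = 3). *S100a8* and *Cd68* are not strictly specific to 1 cell type, so these sums do not measure how many other cells were present. The part of other cells in the results was not tested.

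Lysosomes digest material that a cell engulfs or recycles, and their enzymes work at acid pH. The vacuolar-type proton pump makes that acidity: its V1 sector, on the cytosolic face, splits ATP, and its V0 sector, in the membrane, passes protons into the lumen. Cathepsins are the main lysosomal proteases, LAMP1 and LAMP2 are abundant proteins of the lysosomal membrane, and TFEB, TFE3 and MITF are related transcription factors that switch on many lysosomal genes through E-box motifs. Neutrophils carry proteases in granules, macrophages use lysosomal proteases to degrade engulfed cells, and osteoclasts place the pump at the cell surface to acidify bone. The receptor for CGRP signals through cyclic AMP in many cells, and cyclic AMP acts on genes through the cAMP response element (CRE).

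Promoter sequence was taken from RefSeq windows (GRCm38.p6) that run from 250 bases before to 50 bases after each annotated start. Windows were held for 34 of the 44 members, 43 windows in all. The core E-box read by the MiT/TFE factors, CACGTG, which reads the same on both strands, was found in 9 of these 34 genes (26.5%), against 8.09% of the 27025 genes with a window. The genes were *Atp6v0b*, *Atp6v0d1*, *Atp6v0e*, *Atp6v1a*, *Ctsa*, *Ctsd*, *Ctsf*, *Ctsl* and *Lamp1*. In 7 of the 9, all but *Ctsf* and *Ctsl*, the core lay within the longer form TCACGTG, searched on both strands, which 4.29% of all genes with a window held. The stretches below are printed because they show how the motif sits in a pump gene of each sector, in the 2 cathepsins with the most counts among those with a match, and in *Lamp1*, whose window held 4 copies. All are written 5′ to 3′ on the strand of the gene, with the motif in capitals.
*Lamp1* (chr8:13159086-13159155, plus strand, 75 to 6 bases before the start): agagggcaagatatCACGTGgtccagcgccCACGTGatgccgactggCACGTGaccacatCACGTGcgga
*Atp6v0b* (chr4:117887335-117887384, minus strand, 55 to 6 bases before the start): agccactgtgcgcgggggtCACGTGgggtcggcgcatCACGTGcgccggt
*Atp6v1a* (chr16:44139370-44139404, minus strand, 145 to 111 bases before the start): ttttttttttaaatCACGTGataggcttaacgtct
*Ctsd* (chr7:142387908-142387942, minus strand, 115 to 81 bases before the start): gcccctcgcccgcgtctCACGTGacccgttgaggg
*Ctsl* (chr13:64370731-64370770, minus strand, 250 to 211 bases before the start): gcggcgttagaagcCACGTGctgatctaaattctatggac

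The CRE half-site TGACG, searched on both strands, was found in 9 of the 34 genes (26.5%), against 23% of all genes with a window. In 1 of the 3 windows of *Mitf* a half-site on each strand overlapped to form a full CRE, which 1.79% of all windows held and no other member window did. This stretch was chosen after its values were seen. Capitals mark the full CRE. The other windows of *Mitf*, which lie nearer the outermost start, held no half-site. The single window held for *Atp6v0a1* had neither motif, but it lies inside the gene as GENCODE gives it, so the sequence before the outermost start was not searched. The stretches of *Atp6v1a*, *Ctsd*, *Ctsl* and *Mitf* also lie inside their GENCODE genes, so their distances are from the RefSeq start and not from the outermost one.
*Mitf* (chr6:97991613-97991652, plus strand, 170 to 131 bases before the start): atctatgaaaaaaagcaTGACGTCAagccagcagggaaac

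No E-box was found in the windows of *Mitf*, *Tfeb* or *Tfe3*. These matches describe letters in a window and are not binding sites, and reads near the 3′ end do not show which start a transcript used.

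**Figure D1:**
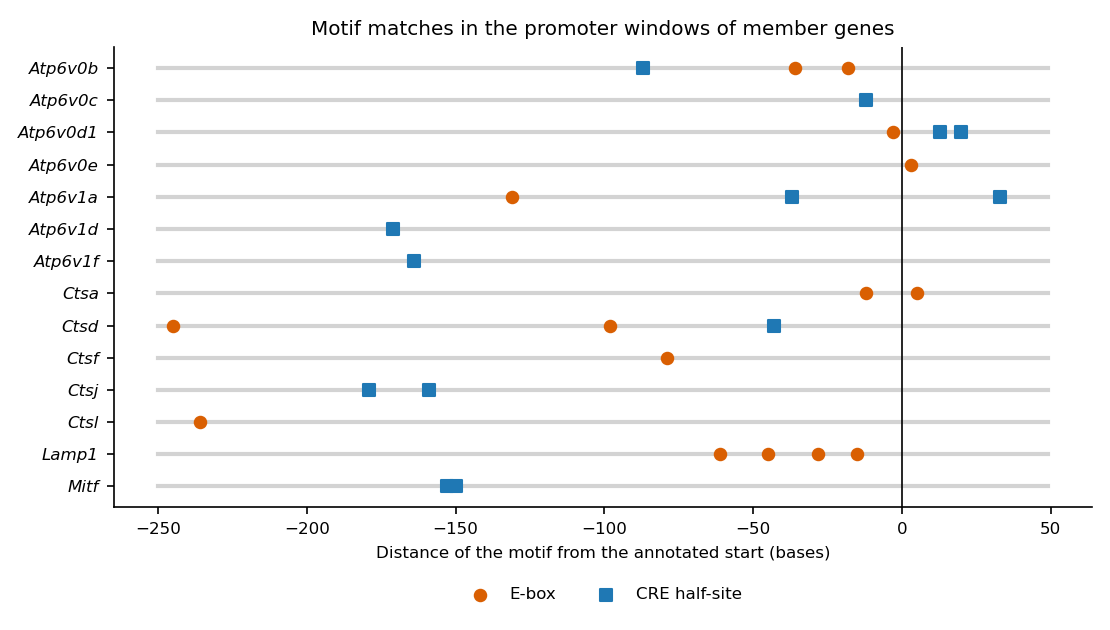
Positions of E-box matches (circles) and CRE half-site matches (squares) in the promoter windows of the members with a match (grey lines, 1 row per window); the x axis is the distance from the annotated start in bases, with negative values before it. *Lamp1* has 4 E-boxes before its start, and the paired half-sites of *Mitf* overlap.

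Of the 44 members, 31 had enough counts to be tested in at least 1 comparison. Another 6 had no count in any library: *Atp6v1b1* and *Atp6v1e2*, pump isoforms known from kidney and testis, and the placental cathepsins *Ctsj*, *Ctsm*, *Ctsq* and *Ctsr*. The remaining 7 (*Atp6v0a4*, *Atp6v0c*, *Atp6v0e2*, *Atp6v1c2*, *Atp6v1g2*, *Atp6v1g3* and *Ctsw*) had some counts but passed the filter on low counts in no comparison with all libraries. *Atp6v0c* encodes the proton-binding ring of V0, yet no group averaged more than 1.06 CPM. Because 39.6% of the 31-base sequences in its last 500 bases occur in other genes, above all in the pseudogene *Atp6v0c-ps2*, this level is uncertain. The number tested was 30 in neutrophils, 30 in macrophages and 29 in both, since *Ctse* was tested only in neutrophils and *Ctsf* only in macrophages.

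In macrophages, CGRP lowered the pump genes *Atp6v0a1* and *Atp6v1b2* and the transcription factor *Mitf* by between 2.05- and 2.62-fold, and raised the protease *Ctsl* by 1.48-fold. These 4 of 30 members tested passed an adjusted p of 0.05, where 7.43% of all 9393 genes tested did. By direction, 1 member rose and 3 fell, and 3.46% of all genes rose and 3.97% fell. In bulk RNA, fewer cells that express a gene and less RNA of it per cell cannot be told apart. Gene positions below are those of GENCODE M21 on GRCm38.

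*Atp6v0a1* (ENSMUSG00000019302, chr11:101009452-101063719, plus strand) encodes the a1 isoform of the large V0 subunit, through which protons cross the membrane. Its level was 233, 189 and 232 CPM in saline macrophages and 66.5, 92.1 and 94.3 CPM in CGRP-treated macrophages. Every treated library lay far below every saline library. The fitted log2 change was -1.39 (SE 0.159) and limma-voom gave an adjusted p of 2.83e-05, a 2.62-fold lower level. When each library was left out in turn the change lay between -1.49 and -1.22. None of its transcript sequence occurs in another annotated gene.

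*Atp6v1b2* (ENSMUSG00000006273, chr8:69088646-69113711, plus strand) encodes the B2 subunit, which alternates with subunit A in the ATP-splitting head of V1. Saline macrophages held 622, 566 and 542 CPM, and treated macrophages 280, 280 and 283 CPM. The treated libraries were nearly equal, and the groups did not overlap. The fitted log2 change was -1.03 (SE 0.122), a 2.05-fold lower level, with an adjusted p of 3.97e-05 by limma-voom. *Slc18a1* on the opposite strand overlaps this gene and had at most 12 counts in any library. Subunit A, encoded by *Atp6v1a*, averaged 597 ± 22.3 CPM in the saline group and 531 ± 57.1 CPM in the treated group (SD, n = 3) and did not pass the test.

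*Mitf* (ENSMUSG00000035158, chr6:97807052-98021349, plus strand), the MiT/TFE factor that drives pigment cell and osteoclast genes, gave 80.1, 83.9 and 100.0 CPM in saline macrophages. After CGRP its level was 26.2, 38.7 and 56.7 CPM. All 3 treated libraries were below all saline libraries, and they spanned a wider range than the saline libraries did. The fitted log2 change was -1.22 (SE 0.212), a 2.33-fold lower level, with an adjusted p of 0.00153 by limma-voom and a range of -1.46 to -0.92 when each library was left out.

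*Tfeb* (ENSMUSG00000023990, chr17:47737030-47792419, plus strand), a regulator of lysosome formation, gave 27.7, 30.5 and 44.4 CPM in saline macrophages and 17.2, 22.1 and 23.1 CPM in treated macrophages. Its groups did not overlap either, but the fitted log2 change of -0.69 (95% interval -1.17 to -0.22) did not pass, with an adjusted p of 0.078 by limma-voom. A fit blocked on replicate number passed it (adjusted p = 0.0284 by limma-voom), as did a single fit over the 12 libraries (adjusted p = 0.0293). *Tfe3*, the third factor, averaged 83.0 ± 10.6 CPM in the saline group and 94.2 ± 10.1 CPM in the treated group (SD, n = 3). Its fitted log2 change of 0.18 (SE 0.151) did not pass, with an adjusted p of 0.554 by limma-voom.

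*Ctsl* (ENSMUSG00000021477, chr13:64359337-64370890, minus strand), which encodes the cysteine protease cathepsin L, gave 2578, 2798 and 2282 CPM in saline macrophages and 4132, 3885 and 3329 CPM after CGRP. Each treated library was above each saline library. The fitted log2 change was 0.57 (SE 0.13), a 1.48-fold higher level, with an adjusted p of 0.0119 by limma-voom. It kept its size but not its call without saline replicate 1 (log2 change 0.58, adjusted p = 0.0829 by limma-voom) and without CGRP replicate 2 (0.55, adjusted p = 0.0792). The antisense gene *Gm47123*, which shares 25.8% of its sequence, had at most 37 counts in any library. Whether the counting used strand is not given in the sources used here, so reads of opposite genes cannot be told apart.

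**Figure D2:**
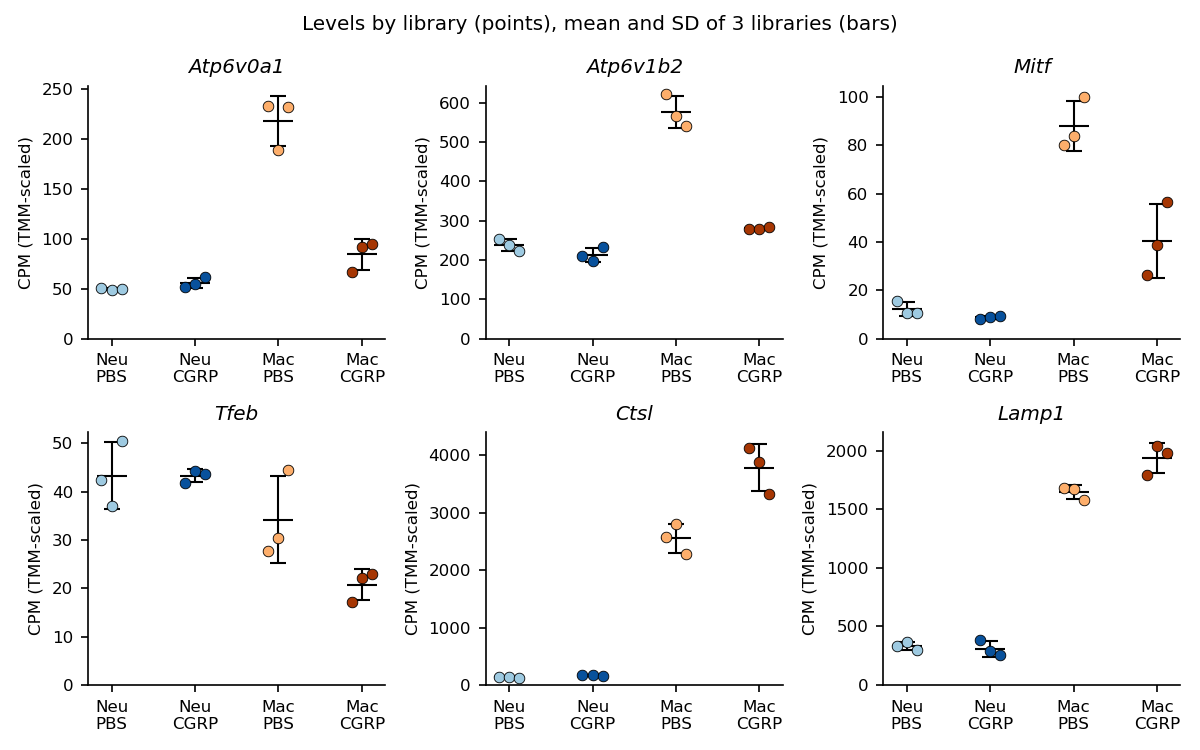
Level (y axis, TMM-scaled CPM, starting at 0) of 6 members in neutrophils (Neu) and macrophages (Mac) with saline (PBS) or CGRP. Points are libraries and bars are the mean and SD of 3 libraries. *Atp6v0a1* and *Atp6v1b2* fall in macrophages, from means of 218 and 577 CPM to 84.3 and 281 CPM, and *Ctsl* is higher with CGRP in both cell types.

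Among the pump genes as a group, 13 of the 14 tested in macrophages had a negative log2 fold change and 1, *Atp6v0a2*, a positive one. Of the 14, 2 passed the test (14.3%), both lower, against 3.97% of all genes lower. Their median log2 fold change was -0.17, against 0.0047 for all genes tested. The count of negative members stayed at 13 of 14 in 9 of the 10 alternative fits and was 14 of 17 without a filter on low counts. It was 12 of 14 without saline replicate 3 or CGRP replicate 2. Apart from the 2 called genes, the fitted changes lay between -0.31 and 0.21 and none passed in limma-voom without quality weights. The lowest of these was that of *Atp6v1c1*, the C1 subunit that links V1 to V0, which passed with quality weights and averaged 418 ± 41.8 CPM in the saline group and 336 ± 38.7 CPM in the treated group (SD, n = 3).

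Summed over the 22 pump genes, the level was 6757, 7289 and 6308 CPM in saline macrophages and 6030, 5458 and 5770 CPM after CGRP. The summed groups did not overlap. Without *Atp6v0a1* and *Atp6v1b2* the sums were 5902, 6534 and 5534 CPM with saline and 5684, 5086 and 5393 CPM with CGRP. The ranges then overlapped on this scale. As shares of library totals, without TMM, the sums without these genes did not overlap.

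Isoforms of the same subunit gave different values. The large V0 subunit has further isoforms in *Atp6v0a2*, at 32.7 ± 8.16 CPM without and 38.0 ± 8.78 CPM with CGRP (SD, n = 3), and in *Tcirg1*, the a3 isoform of osteoclasts, whose name lies outside the naming rule. *Tcirg1* gave 204, 189 and 194 CPM in saline macrophages and 173, 193 and 186 CPM after CGRP, so that its groups overlapped. Its fitted log2 change was -0.09 (SE 0.125), with an adjusted p of 0.76 by limma-voom. The d isoforms *Atp6v0d1* and *Atp6v0d2*, which join the V0 ring to the central stalk, did not pass either. The difference in response between isoforms was not itself tested.

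The cathepsins showed no common direction in macrophages: 7 of 11 tested had a positive and 4 a negative log2 fold change, which became 5 and 6 with library totals in place of TMM. In limma-voom *Ctsl* alone passed, and *Ctsa* and *Ctsf* passed with quality weights and *Ctss* with no filter on low counts. The median was 0.05, against 0.0047 for all genes tested. *Ctss*, the cathepsin that trims the invariant chain for antigen presentation, gave 9707, 9069 and 8549 CPM in saline macrophages and 10035, 11135 and 12294 CPM in treated macrophages. Its groups did not overlap in CPM, though they did as shares of library totals, and it did not pass the test with the filter. *Ctsb*, another cysteine protease, averaged 16190 ± 984 CPM in the saline group and 16662 ± 1037 CPM in the treated group (SD, n = 3). Groups did not overlap for 12 of the 30 members tested, 5 higher and 7 lower, against 24.1% of all genes tested.

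Summed over the 17 cathepsins, saline macrophages held 38483, 38880 and 36809 CPM and CGRP-treated macrophages 40332, 42693 and 45312 CPM. The groups did not overlap on this scale. As a share of library totals, without TMM, they did: the saline libraries were at 3.98%, 3.74% and 4.05% and the treated libraries at 3.96%, 4.31% and 4.51%.

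Both LAMP genes had positive log2 fold changes in macrophages that did not pass the test. *Lamp1* averaged 1644 ± 58.8 CPM in the saline group and 1938 ± 126 CPM in the treated group (SD, n = 3), a fitted change of 0.24 (SE 0.117) with an adjusted p of 0.276 by limma-voom. *Lamp2*, which takes part in autophagy, averaged 482 ± 44.2 CPM and 557 ± 31.4 CPM in the same order. Its fitted change was 0.21 (SE 0.125), with an adjusted p of 0.377 by limma-voom. Of the last 500 bases of *Lamp1*, 31.3% overlap *Grtp1* on the opposite strand, which had at most 27 counts in any library.

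Markers differed beside these results. In macrophage libraries the neutrophil markers summed to 338, 398 and 303 CPM in the saline group and 444, 419 and 420 CPM in the treated group. All 8 that could be tested had a positive log2 fold change (median 0.38), and none passed in limma-voom. Of these 8, 2 had an unadjusted p under 0.05 by limma-voom, against 19.8% of all genes tested. *S100a8* was the most abundant, and *Ly6g* was below the floor in every macrophage library. In saline neutrophils *Atp6v0a1* averaged 49.6 CPM. Macrophage markers summed to 13686, 13988 and 13603 CPM in the saline group and 12722, 13762 and 13615 CPM in the treated group, and 9 of 10 had a positive log2 fold change. The lipase *Lpl*, named after its values were seen, was the single marker of this list that passed, with a fitted log2 change of -0.65 and an adjusted p of 0.00506 by limma-voom. Osteoclast markers were low: *Acp5* led at 110 CPM and 126 CPM in the saline and treated groups, and *Calcr* and *Oscar* had no counts. Dendritic cell markers, led by *Ccr7*, summed to 14, 12.8 and 14 CPM in the saline group and 15.9, 22.8 and 25.1 CPM in the treated group. B cell markers, led by *Cd79b*, summed to 32.3, 33.5 and 31.2 CPM and to 37.5, 40.5 and 38.6 CPM. Both sums were higher without overlap after CGRP, but each was mostly 1 gene. *Cd79b* alone averaged 31.8 CPM with saline and 38.0 CPM with CGRP, and *Ccr7* 11.5 and 18.5 CPM. In each list 1 of 6 markers had enough counts to be tested. Mitochondrial genes took 1.48%, 1.44% and 1.57% of counts in the saline group and 1.23%, 1.38% and 1.34% in the treated group, lower without overlap. The part of these markers and of the mitochondrial share in the results was not tested.

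In neutrophils, *Ctsl* was the single member of 30 that passed the test for CGRP, where 2.53% of all 9819 genes tested did. Saline neutrophils held 137, 132 and 125 CPM of it, and treated neutrophils 176, 175 and 154 CPM. The groups did not overlap. The fitted log2 change was 0.37 (SE 0.092), a 1.30-fold higher level, with an adjusted p of 0.0296 by limma-voom. The call held without CGRP replicate 3 (adjusted p = 0.0166 by limma-voom) and was lost without saline replicate 1, 2 or 3 or CGRP replicate 1 or 2, where the adjusted p lay between 0.0797 and 0.146. DESeq2 gave an adjusted p of 0.0546 and the single limma-voom fit over 12 libraries 0.234. In saline macrophages *Ctsl* averaged 2553 ± 259 CPM (SD, n = 3). Macrophage markers in neutrophil libraries summed to 725, 758 and 706 CPM in the saline group and 766, 635 and 647 CPM in the treated group, *Cd68* being the most abundant. Of the 9 tested, *Lpl* alone passed, and it fell (log2 change -1.48, adjusted p = 3.83e-05 by limma-voom). Whether these cells had a part in the *Ctsl* value was not tested.

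The pump genes of neutrophils had 7 positive and 7 negative log2 fold changes among the 14 tested, and with library totals in place of TMM the split was 9 and 5. Their median was -0.0020, against 0.00080 for all genes tested. None passed in limma-voom, edgeR or DESeq2. An unadjusted p under 0.05 in limma-voom was found for 1, *Atp6v1g1* (7.14%), against 12.8% of all genes tested. *Atp6v0a1* gave 50.9, 48.3 and 49.5 CPM in saline neutrophils and 51.2, 54.3 and 61.1 CPM in treated neutrophils. Its highest saline and lowest treated values nearly met and overlapped as shares of library totals, and its fitted log2 change of 0.16 (SE 0.124) did not pass (adjusted p = 0.663 by limma-voom). *Atp6v1b2* gave 253, 238 and 224 CPM in saline neutrophils and 209, 198 and 233 CPM in treated neutrophils, and its groups overlapped.

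*Lamp2* gave 244, 272 and 241 CPM in saline neutrophils and 300, 297 and 298 CPM after CGRP, without overlap. Its fitted log2 change of 0.25 (SE 0.082) did not pass, with an adjusted p of 0.126 by limma-voom. *Lamp1* had a fitted change of -0.10 (SE 0.113, adjusted p = 0.794). *Tfeb* and *Tfe3* had fitted changes near 0 in neutrophils. For *Tfeb* it was 0.03 (SE 0.141, adjusted p = 0.966), and for *Tfe3* 0.06 (SE 0.135, adjusted p = 0.908), all by limma-voom. *Mitf* was low, with 15.6, 10.4 and 10.8 CPM in saline neutrophils and 8.09, 9.05 and 9.16 CPM after CGRP. Its fitted change of -0.45 (SE 0.252) did not pass (adjusted p = 0.493 by limma-voom). Groups did not overlap for 7 of 30 members, against 17.6% of all genes tested.

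**Figure D3:**
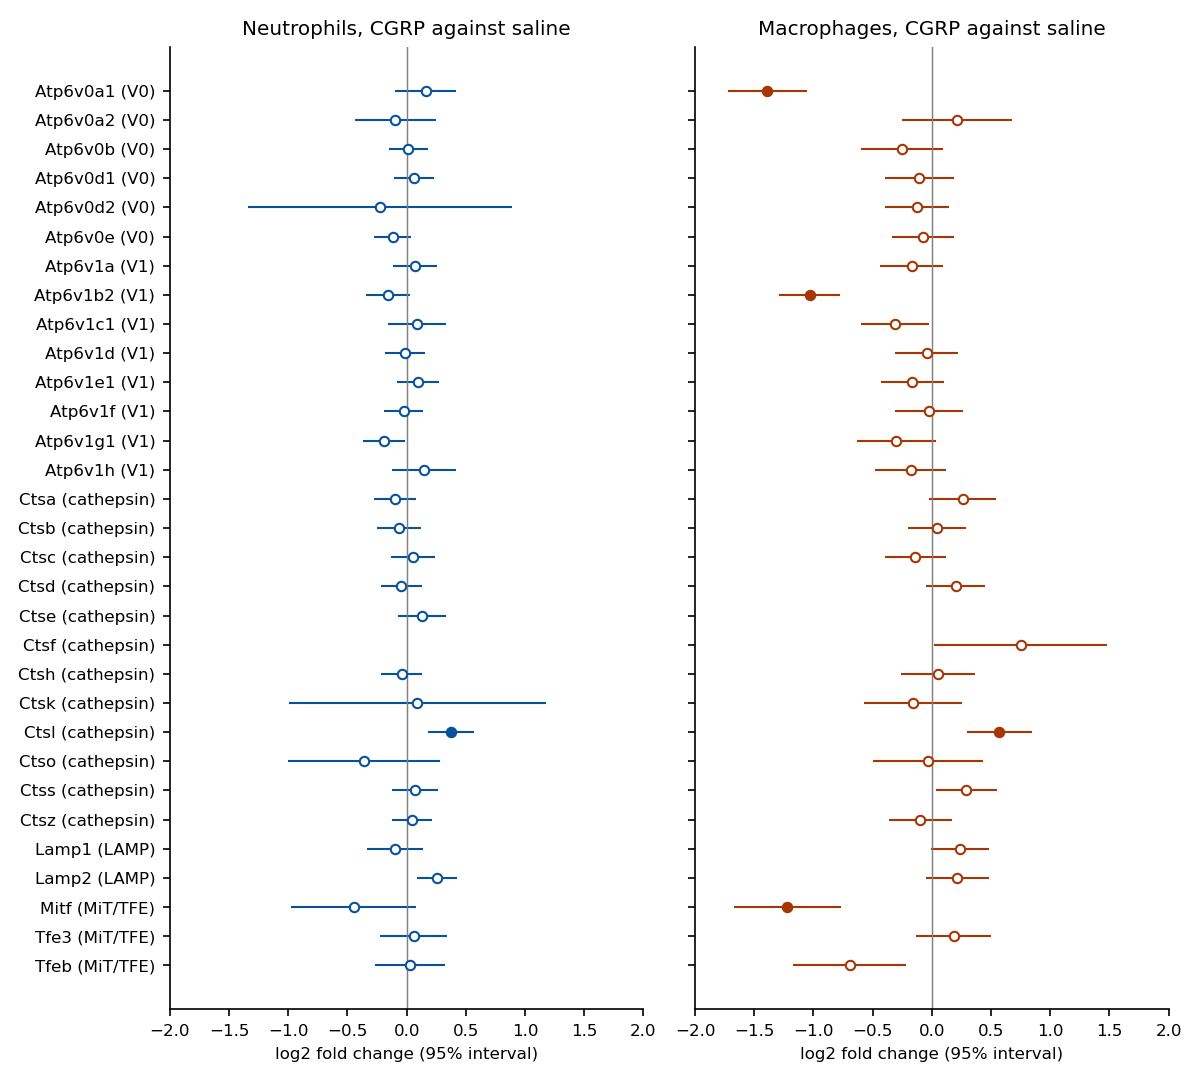
Log2 fold change of CGRP against saline (x axis) with its 95% interval, from the limma-voom fit of each cell type, for every member tested there (rows, with the role in parentheses). Filled points have an adjusted p under 0.05: *Atp6v0a1*, *Atp6v1b2*, *Ctsl* and *Mitf* in macrophages, and *Ctsl* in neutrophils.

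An interaction fit over the 12 libraries asked whether the 2 cell types responded unequally to CGRP, and 2 of 31 members passed, against 2.36% of 10694 genes. Both were pump genes. *Atp6v0a1* had a log2 fold change lower in macrophages than in neutrophils, with a difference of -1.54 (SE 0.206, adjusted p = 6.5e-05 by limma-voom). For *Atp6v1b2* the difference was -0.87 (SE 0.146, adjusted p = 0.00109 by limma-voom). Both passed in all 9 alternative fits and without each of the 12 libraries in turn. No cathepsin passed in limma-voom, where 1 of 12 had an unadjusted p under 0.05, nor in edgeR or DESeq2. Of all genes tested, 13.2% had such a p.

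The fall of *Mitf* was not shown to differ between cell types: the difference was -0.77 with a 95% interval of -1.55 to 0.01 and an adjusted p of 0.394 by limma-voom. For *Tfeb* the difference was -0.71 (SE 0.265, adjusted p = 0.204), and for *Tfe3* it was 0.13 (SE 0.206, adjusted p = 0.863). The rise of *Ctsl* differed by 0.21 (95% interval -0.12 to 0.54, adjusted p = 0.65). Neither membrane protein passed in this test. *Lamp1* gave 0.35 (SE 0.17, adjusted p = 0.386) and *Lamp2* -0.03 (SE 0.144, adjusted p = 0.96), all by limma-voom.

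More genes differed between the resting cell types than between CGRP and saline within either cell type. Saline macrophages and saline neutrophils also differed in medium, in M-CSF and in 3 days of culture, and these cannot be told apart from cell type. Of 31 members tested, 26 passed the test, 25 higher and 1 lower in macrophages. Of all 10186 genes tested, 68.5% passed, 33.0% higher and 35.5% lower. The median log2 difference of the members was 1.27, against -0.03 for all genes tested. Against a log2 fold change of at least 1 (limma's treat), 15 were higher and 1 lower, while 10.6% and 15.2% of all genes were.

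The V0 gene *Atp6v0d2*, the isoform of subunit d induced in osteoclasts and in macrophages, gave 530.5, 607 and 582 CPM in saline macrophages and 1.56, 3.97 and 2.51 CPM in saline neutrophils. This was the largest difference among the members tested, at 7.74 on the log2 scale (SE 0.337, adjusted p = 5.17e-13 by limma-voom). Its partner isoform *Atp6v0d1*, which most cells carry, averaged 271 ± 21.8 CPM and 244 ± 6.39 CPM (SD, n = 3) and did not pass. Per kilobase of exon, saline macrophages held 211 CPM of the d2 isoform and 151 CPM of d1, and saline neutrophils 0.988 CPM of d2 and 136 CPM of d1. As reads came from the 3′ end, these values partly reflect the division by length and are not measured isoform shares. The CPM values before division gave the same order.

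The next differences belonged to cathepsins. *Ctsb*, with both endo- and carboxypeptidase activity, averaged 16190 ± 984 CPM in macrophages and 732 ± 42.5 CPM in neutrophils (SD, n = 3), a log2 difference of 4.46 (SE 0.104). Its last 500 bases lie wholly opposite *Fdft1*, which had at most 85 counts in any library. *Ctss* averaged 9108 ± 580 CPM and 466 ± 11.5 CPM (log2 difference 4.28, SE 0.103). *Ctsl* averaged 2553 ± 259 CPM and 131 ± 5.70 CPM (log2 difference 4.27, SE 0.114). These 3 are cysteine proteases, as is *Ctsk*, the collagen-cutting cathepsin of osteoclasts, which averaged 27.6 ± 3.91 CPM and 2.87 ± 0.991 CPM (log2 difference 3.23, SE 0.34). *Ctsd*, the main aspartic protease of lysosomes, averaged 6058 ± 304 CPM and 791 ± 52.6 CPM (log2 difference 2.94, SE 0.103). It shares 33.2% of its sequence with *Gm49369*, which had 0 counts in every library. In each of these genes all 3 macrophage libraries were above all 3 neutrophil libraries, and the adjusted p was 1.12e-07 for *Ctsk* and 2.16e-14 or smaller for the other 4 by limma-voom.

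*Ctse*, a non-lysosomal aspartic protease of immune and gastric cells, was the exception. It gave 95.3, 96.9 and 106 CPM in saline neutrophils and 1.14, 1.19 and 1.43 CPM in saline macrophages, close to the floor. The log2 difference was -6.15 (SE 0.379, adjusted p = 6.44e-11 by limma-voom). Erythroid cells also carry this gene, and erythroid markers summed to 6371, 7334 and 5714 CPM in the same neutrophil libraries and to 22.9, 23.3 and 20.1 CPM in the macrophage libraries, a part that was not tested.

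Together the 17 cathepsins took between 3.74% and 4.05% of all counts in saline macrophages and between 0.307% and 0.345% in saline neutrophils. The pump genes summed to 6785 ± 492 CPM in saline macrophages and 3356 ± 91.7 CPM in saline neutrophils (SD, n = 3), a smaller gap. Of the 14 pump genes tested, 10 (71.4%) were higher in macrophages and none was lower, with 68.5% of all genes called, 33.0% higher and 35.5% lower, and the median log2 difference was 0.94. Subunits *Atp6v1d* and *Atp6v1e1* of the V1 stalk, *Atp6v0a2* and *Atp6v0d1* did not pass. The stalk isoform *Atp6v1g2*, too low for the filter, had 10, 15 and 7 counts in saline neutrophils and 3, 1 and 7 in saline macrophages, and it was called lower in macrophages in 4 alternative fits. Of 12 cathepsins tested, 11 were higher, against the same 33.0% of all genes, with a median of 2.43. Per kilobase of exon, the highest levels in saline macrophages were those of *Ctss* (6707 CPM per kb), *Ctsb* (2676), *Ctsd* (2577) and *Ctsz* (1429), and in saline neutrophils those of *Ctss* (343), *Ctsd* (336), *Atp6v1f* (317) and *Ctsz* (278). Reads came from the 3′ end, so counts need not grow with transcript length, and the order partly reflects the division by length. Without it the order in saline macrophages was *Ctsb* (16190 CPM), *Ctss* (9108 CPM), *Ctsd* (6058 CPM) and *Ctsl* (2553 CPM). In saline neutrophils it was *Ctsd* (791 CPM), *Ctsb* (732 CPM) and the V0 gene *Atp6v0e* (698 CPM).

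**Figure D4:**
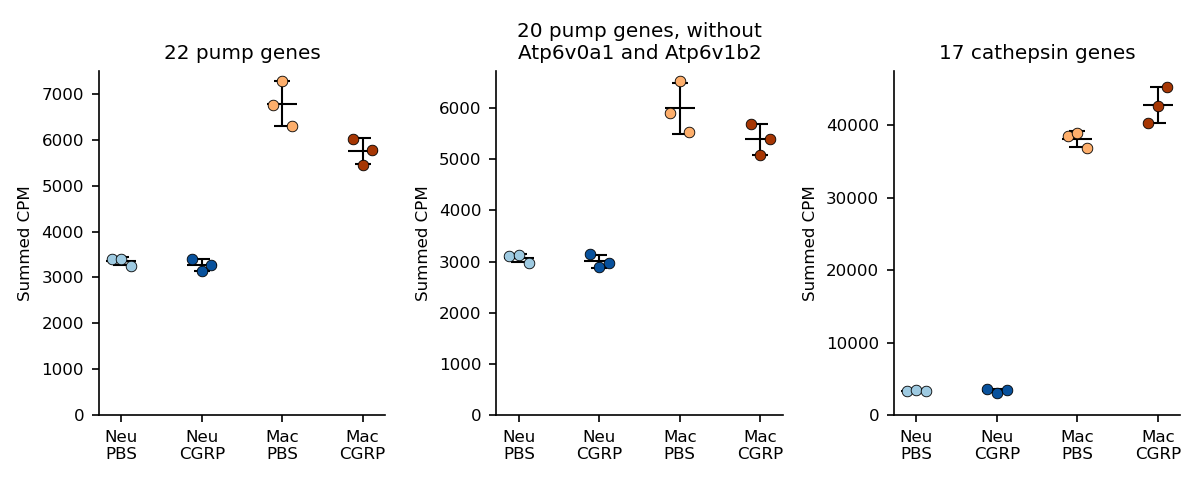
Summed level (y axis, CPM, starting at 0) of the 22 pump genes, of the 20 pump genes without *Atp6v0a1* and *Atp6v1b2*, and of the 17 cathepsins in the 4 groups; points are libraries and bars the mean and SD of 3 libraries. All treated macrophage libraries lie below all saline macrophage libraries for the pump genes. Without those 2 the ranges overlap in CPM but not as shares of library totals without TMM. For the cathepsins the treated libraries lie above the saline libraries in CPM, and the groups overlap as shares of library totals.

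*Lamp1* was 4.95-fold higher in macrophages (log2 difference 2.31, SE 0.108, adjusted p = 1.34e-12 by limma-voom). *Lamp2* was 1.91-fold higher (log2 difference 0.93, SE 0.112, adjusted p = 6.84e-07). The 3 transcription factors split. *Mitf* averaged 88.0 ± 10.6 CPM in saline macrophages and 12.3 ± 2.92 CPM in saline neutrophils (SD, n = 3), a log2 difference of 2.83 (SE 0.204, adjusted p = 5.85e-10 by limma-voom). *Tfe3* averaged 83.0 ± 10.6 CPM and 62.4 ± 3.78 CPM. Its log2 difference of 0.40 (SE 0.137, adjusted p = 0.0146 by limma-voom) was lost without neutrophil replicate 1, neutrophil replicate 2 or macrophage replicate 1 (adjusted p between 0.0717 and 0.0718). *Tfeb* had the opposite sign and did not pass, with 34.2 ± 8.95 CPM in macrophages, 43.4 ± 6.83 CPM in neutrophils and a log2 difference of -0.37 (SE 0.183, adjusted p = 0.0787 by limma-voom). In a fit blocked on replicate number this adjusted p was 0.0365, without neutrophil replicate 2 it was 0.0437, and without macrophage replicate 3 it was 0.00676. Quality weights gave 0.0120. Among these 3 factors *Mitf* had the largest resting difference and was the single one to pass for CGRP in macrophages with each cell type fitted alone and no block, while *Tfeb* passed in the 2 other fits named above.

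**Figure D5:**
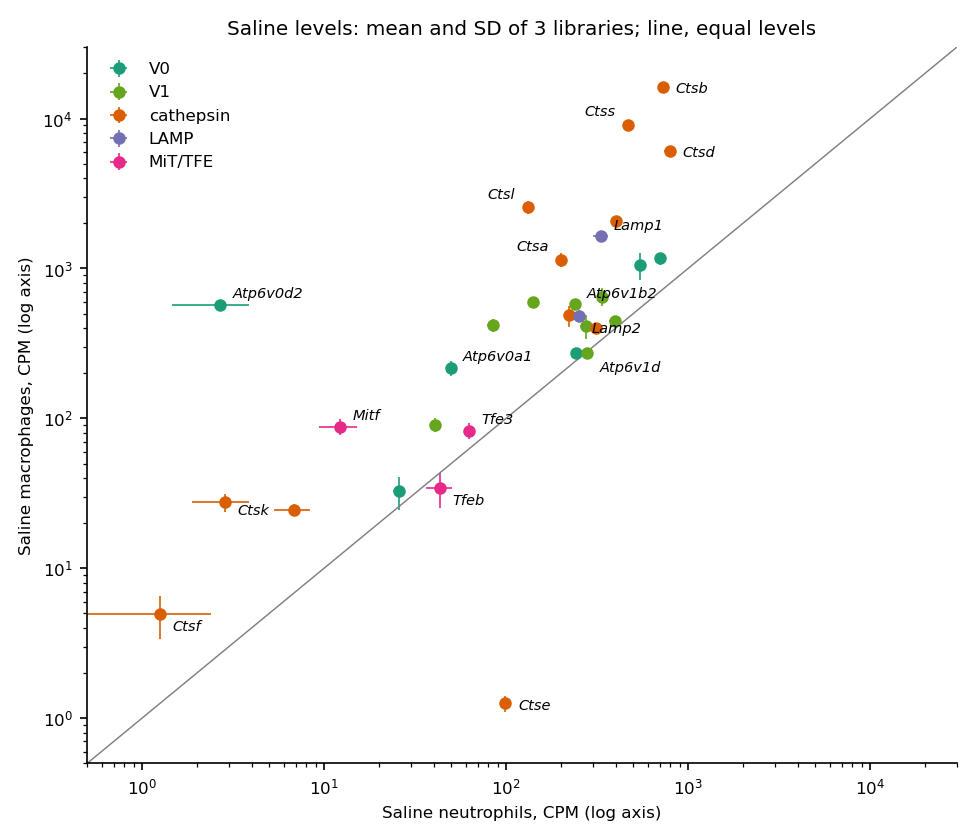
Mean level of each member tested in saline neutrophils (x axis) and saline macrophages (y axis), in CPM on log axes, coloured by role, with SD of 3 libraries; the line marks equal levels. Most members lie above the line, *Atp6v0d2* farthest with a log2 difference of 7.74, then *Ctsb*, *Ctss* and *Ctsl*, and *Ctse* lies far below it; the lower bar of *Ctsf* runs past the edge.

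Genes that work with the pump and its enzymes were counted in 6 lists of the pathway. Of the assembly factors and partners of the pump, 14 of 15 were tested in each cell type and none passed for CGRP in limma-voom, edgeR or DESeq2. By limma-voom, 1 in neutrophils and 2 in macrophages had an unadjusted p under 0.05, which 12.8% and 19.8% of all genes tested had.

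Soluble lysosomal hydrolases gave 1 call among 39 (2.56%) in each cell type, against 2.53% of all genes in neutrophils and 7.43% in macrophages. An unadjusted p under 0.05 by limma-voom was found for 11 of the 39 (28.2%) in neutrophils and 6 (15.4%) in macrophages. Over all genes tested the shares were 12.8% and 19.8%. *Pla2g15*, the lysosomal phospholipase A2, fell in macrophages from 225, 201 and 233 CPM to 144, 143 and 128 CPM, without overlap (log2 change -0.66, SE 0.131, adjusted p = 0.00471 by limma-voom). *Lipa*, the lysosomal acid lipase, fell in neutrophils from 49.4, 59.9 and 62.8 CPM to 36.9, 33.0 and 40.6 CPM (log2 change -0.63, SE 0.139, adjusted p = 0.0127 by limma-voom). The *Lipa* call was lost without saline replicate 2, saline replicate 3 or CGRP replicate 2, with adjusted p-values of 0.0685, 0.0533 and 0.108. In saline macrophages *Lipa* averaged 1187 ± 182 CPM (SD, n = 3), and the macrophage markers found in neutrophil libraries stand beside this gene too. In macrophages 29 of the 39 hydrolases had a positive log2 fold change (median 0.14), and in neutrophils 13 (median -0.11). Of all genes tested, 4764 of 9393 in macrophages and 4928 of 9819 in neutrophils were positive. Groups did not overlap for 10 hydrolases in macrophages, 9 higher and 1 lower, against 24.1% of all genes tested. In neutrophils they did not for 12, 3 higher and 9 lower, against 17.6%.

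Of the lysosomal membrane proteins, 3 of 28 passed in macrophages, 2 higher and 1 lower, and 2 of 27 in neutrophils, both higher. These were 10.7% and 7.41% of the list, against 7.43% and 2.53% of all genes. In neutrophils 148 of all 9819 genes tested passed as higher. *Slc15a3*, a transporter that moves histidine and small peptides out of the lysosome, rose in macrophages from 385, 254 and 372 CPM to 682, 861 and 856 CPM (log2 change 1.26, SE 0.161, adjusted p = 8.39e-05 by limma-voom). In neutrophils it rose from 116, 96.6 and 99.0 CPM to 168, 146 and 154 CPM (log2 change 0.60, SE 0.101, adjusted p = 0.00105 by limma-voom). The groups were apart in both cell types, and the interaction for this gene did not pass (0.67, adjusted p = 0.0924 by limma-voom). Its relative *Slc15a4*, which carries the same substrates, fell in macrophages from 69.8 ± 7.39 CPM to 39.5 ± 6.40 CPM (SD, n = 3), with a log2 change of -0.83 (SE 0.17, adjusted p = 0.00569 by limma-voom). The amino acid sensor *Slc38a9* rose in macrophages (log2 change 0.80, SE 0.21, adjusted p = 0.0285 by limma-voom). This call was lost without saline replicate 1 or 2 or CGRP replicate 1 or 2, where the adjusted p lay between 0.0740 and 0.126. The sialomucin *Cd164* rose in neutrophils (log2 change 0.42, SE 0.103, adjusted p = 0.0305 by limma-voom). It passed without CGRP replicate 3 and was lost without each of the other 5 libraries, where the adjusted p lay between 0.0664 and 0.144.

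Of the genes that hold TFEB in the cytosol or release it, 1 of 22 (4.55%) passed in macrophages, against 7.43% of all genes. *Rraga*, a GTPase that brings mTORC1 to the lysosome, fell from 55.5, 72.6 and 53.7 CPM to 42.5, 36.8 and 32.6 CPM (log2 change -0.67, SE 0.179, adjusted p = 0.0301 by limma-voom). It passed without saline replicate 3 or CGRP replicate 1 and was lost without each of the other 4 libraries, where the adjusted p lay between 0.0727 and 0.133. In neutrophils none of 21 passed in limma-voom, edgeR or DESeq2. An unadjusted p under 0.05 by limma-voom was found for 3 (14.3%), against 12.8% of all genes tested.

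Of the autophagy genes, 2 of 25 (8%) passed in macrophages, both higher. Of all genes 7.43% passed, and 3.46% passed as higher. By limma-voom 9 of the 25 (36%) had an unadjusted p under 0.05 there, against 19.8% of all genes tested. Groups did not overlap for 11 of the 25, all higher. They did not for 24.1% of all 9393 genes tested, 1089 higher and 1176 lower. *Ulk1*, the kinase that starts autophagy, rose from 5.72, 2.69 and 8.60 CPM to 12.2, 18.0 and 14.5 CPM (log2 change 1.53, SE 0.36, adjusted p = 0.0147 by limma-voom). Its call was lost without saline replicate 1, saline replicate 2 or CGRP replicate 2, with adjusted p-values of 0.0592, 0.0668 and 0.0792. *Uvrag*, a Beclin partner, rose from 26.9, 22.4 and 34.4 CPM to 52.2, 58.6 and 45.6 CPM (log2 change 0.94, SE 0.191, adjusted p = 0.00517 by limma-voom). In neutrophils none of 25 passed in limma-voom, edgeR or DESeq2. There 4 had an unadjusted p under 0.05 by limma-voom, against 12.8% of all genes tested, and groups did not overlap for 7, against 17.6%.

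Cathepsin inhibitors are proteins that block these proteases. None passed for CGRP among the 9 tested in neutrophils or the 2 tested in macrophages, and edgeR and DESeq2 gave no call. An unadjusted p under 0.05 by limma-voom was found for 1 of the 9 and 0 of the 2. Over all genes tested the shares were 12.8% and 19.8%. Across these 6 lists no gene passed in the interaction by limma-voom, edgeR or DESeq2. The counts at an unadjusted p under 0.05 by limma-voom were 2 of 14 pump partners, 8 of 39 hydrolases, 4 of 28 membrane proteins, 1 of 22 genes of TFEB control, 7 of 25 autophagy genes and 1 of 9 inhibitors, against 13.2% of all genes tested.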

How the data were processed

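RNA was measured in 12 libraries, 3 in each of 4 groups, made from an oligo-dT primed reverse transcription that added a unique molecular identifier. The authors deposited raw counts per gene, 1 table per cell type, each with 52636 genes. The submitters' processing notes name STAR, featureCounts and limma and the build GRCm38. The study's methods place these steps in the nf-core/rnaseq pipeline with its UMI option. The versions of STAR, featureCounts and limma, the annotation release and the strand setting are not given in the sources used here. Counts taken near the 3′ end depend on the annotated end of each gene, and genes that overlap there can share reads.

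The counts were filtered with filterByExpr, scaled by TMM and tested with limma-voom, two-sided, within each cell type, with the Benjamini-Hochberg adjustment over all genes tested and a threshold of 0.05 (R 4.3.3, limma 3.58.1, edgeR 4.0.16). The interaction was fitted over the 12 libraries and the resting comparison over the 6 saline libraries. The procedure was tested on simulated counts with planted 3-fold changes and a single fixed dispersion. Limma-voom recovered 97.4% of them in neutrophils, 95.3% in macrophages and 97.4% in the resting comparison. In the interaction it recovered 74.2%, so a change there is more easily missed. Smaller changes were not simulated. The alternatives were DESeq2 1.42.0, its size factors, the quasi-likelihood test of edgeR, library totals, no filter, at least 10 counts in every library, quality weights, a replicate block, thinning, a single fit, limma's treat against a log2 fold change of 1 and leaving out each library. The saline libraries of the 2 cell types shared replicate numbers, and libraries of the same number deviated together (correlations of 0.102 to 0.210 over genes), while the labels do not say what a number marks. This check does not settle whether the numbers pair the saline libraries. The main resting fit did not pair them.

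Gene positions and shared sequence came from GENCODE M21 on GRCm38, where 52403 of the gene identifiers and all 44 members were found. Sharing was the percent of 31-base sequences of a gene that occur in another gene. Promoter windows came from RefSeq (GRCm38.p6). Python 3.11.15, pandas 2.3.3 and matplotlib 3.10.9 were used for the sequences and plots.

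The members, the pathway and marker lists and the tests were chosen with earlier results of these data known. Full statistics were given for members that passed in either CGRP comparison or the interaction, for *Lamp1*, *Lamp2*, *Tfeb*, *Tfe3* and *Mitf* in each comparison, and for up to 6 members in each direction with the largest resting difference among those that passed without overlap. From the pathway lists, genes that passed for CGRP were named, at most 4 per list and cell type, and *Tcirg1* always. The marker lists of dendritic, B, T or NK, mast and related cells, erythroid cells and platelets gave no gene that passed for CGRP in limma-voom.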

Additional observations from a re-analysis of the deposited data

Results flagged for a closer look

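The effect of CGRP differed between the cell types for 2 pump genes by the interaction test. For *Atp6v0a1* the log2 fold change in macrophages minus that in neutrophils was -1.54 (SE 0.206, adjusted p = 6.5e-05 by limma-voom), with all 3 treated libraries below all saline libraries in macrophages and a fitted log2 change of 0.16 in neutrophils that did not pass (adjusted p = 0.663 by limma-voom). For *Atp6v1b2* the same difference was -0.87 (SE 0.146, adjusted p = 0.00109 by limma-voom), with all 3 treated libraries below all saline libraries in macrophages and overlapping groups in neutrophils. In groups of 3, single libraries were looked at through quality weights and by leaving each out, as given below.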

How the results depend on the processing

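In macrophages the 4 called members *Atp6v0a1*, *Atp6v1b2*, *Mitf* and *Ctsl* passed in each of the 10 alternative fits, and 3 to 4 members passed when each library was left out. With quality weights 7 passed, the additional ones being *Ctsa* (log2 change 0.34), *Atp6v1c1* (-0.38) and *Ctsf* (1.03). *Ctss* passed with no filter on low counts (0.27, adjusted p = 0.0380 by limma-voom). Over all genes, macrophage calls numbered 1406 with quality weights and 1050 in the single fit, against 698, and ranged from 347 to 765 when each library was left out, with 347 without saline replicate 1, 348 without CGRP replicate 2 and 439 without CGRP replicate 3. In neutrophils 0 members passed with DESeq2 or in the single fit, and 0 to 1 when each library was left out. All-gene calls there numbered 137 in the single fit, against 248, and ranged from 138 to 234, with 138 without saline replicate 1 or 2 and 153 without CGRP replicate 2. The interaction gave the same 2 members in all 9 alternative fits and 12 fits that each left out a library, while its all-gene calls numbered 520 with quality weights, against 252, and ranged from 149 (without macrophage saline replicate 1) to 328. In the resting comparison limma's treat left 16 members and 2630 genes, and leaving out a library gave 25 to 29 members and 6547 to 7265 genes. *Atp6v1e1* passed there with library totals (adjusted p = 0.0179 by limma-voom) and without macrophage replicate 3 (0.0417), and *Atp6v0a2* with quality weights (0.0450) and without macrophage replicate 2 (0.0125). *Tfeb* passed with quality weights (0.0120). Of 2 pump genes too low for the filter with all libraries, *Atp6v1g2* was called lower in macrophages with no filter (log2 difference -1.76, adjusted p = 0.0144 by limma-voom) and without neutrophil replicate 3 (-1.97, 0.0124), macrophage replicate 1 (-1.74, 0.0303) or macrophage replicate 3 (-2.38, 0.00252), and *Atp6v1g3* with no filter (-2.46, 0.00200). The causes were not tested.

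Values near 0 changed sign when a library was left out. In neutrophils *Tfeb* ranged from -0.096 to 0.14, *Tfe3* from -0.052 to 0.22, *Lamp1* from -0.26 to 0.026 and *Tcirg1* from -0.18 to 0.068. *Tcirg1* was also at 0.026 with library totals in place of TMM. In the interaction *Tfe3* ranged from -0.027 to 0.22 and *Lamp2* from -0.099 to 0.031. Library totals moved the all-gene median of the interaction from 0.020 to -0.098, and the pump genes were then 1 positive and 13 negative, against 4 and 10, and the cathepsins 7 and 5, against 9 and 3. Among the neutrophil list genes, DESeq2 lost *Cd164*, library totals lost *Lipa*, and the single fit lost *Cd164*, *Lipa* and *Slc15a3*. In macrophages *Slc38a9* was lost with DESeq2, library totals, no filter and thinning.

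With the replicate number as a block, *Tfeb* passed in macrophages (adjusted p = 0.0284 by limma-voom) and in the resting comparison (0.0365), and the block changed no other call among the named genes. The correlation of same-numbered libraries was -0.014 to 0.141 for neutrophils and -0.185 to 0.282 for macrophages. Libraries of unlike number gave -0.140 to 0.114 and -0.412 to 0.395. These ranges do not show whether the numbers pair libraries within a cell type. Depth limits genes near the floor: 7 members had counts and did not pass the filter with all libraries, and a count of 3 was worth at most 1.5 CPM.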
